A study of Mus musculus with 10 samples.

Results

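The BCL2 family decides at the mitochondrion whether a cell lives or dies, and 10 of its genes were followed here in developing B cells with and without Mta2. The members were the survival genes Bcl2, Bcl2l1 and Mcl1, the BH3-only death genes Bcl2l11, Bbc3, Pmaip1, Bad and Bid, and the pore-forming effectors Bax and Bak1. They were found by gene symbol among the 23420 genes of the count tables, and all 10 passed the filter on low counts that left 14161 genes for testing. RNA was sequenced from B cell precursors sorted out of C57BL/6 mouse bone marrow, in 10 libraries of 4 groups. Small pre-B cells, sorted as B220+ IgM- CD43- cells of small size by light scatter, came from Mta2 KO mice (3 libraries) and from control mice (3 libraries). Pro-B cells, sorted as B220+ IgM- CD43+, came from Mta2 KO mice (2 libraries) and from control mice (2 libraries). The KO is labelled Mta2_VavKO, and the Vav promoter is active across blood cells, so the deletion is not limited to B cells. Control mice are labelled only as controls, and the labels give neither their alleles nor the age or sex of any animal. Where nothing says that libraries came from separate animals, p-values measure the spread between libraries, which may be technical.

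Survival proteins such as BCL2, BCL-XL (the product of Bcl2l1) and MCL1 hold the effectors BAX and BAK in check. BH3-only proteins such as BIM (Bcl2l11), PUMA (Bbc3) and NOXA (Pmaip1) bind the survival proteins, and once too few of these are free, BAX and BAK open the outer mitochondrial membrane and caspases are activated. In B cell development the family is known for removing precursors that fail to make a useful receptor, with interleukin-7 and pre-B cell receptor signals favouring survival. Mta2 is a subunit of the NuRD complex, which remodels nucleosomes and deacetylates histones.

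Total counts ran from 17805507 to 25821264 in KO small pre-B libraries, from 18502193 to 38392136 in control small pre-B libraries, from 48988304 to 52011415 in KO pro-B libraries and from 48860391 to 52127004 in control pro-B libraries. The lowest count of any member in any library was 51 (Pmaip1 in control small pre-B library 1). The SD between libraries was above the counting error of a single library in 36 of the 40 pairs of a member and a group, the exceptions being Bad, Bak1 and Bcl2l11 in control pro-B cells and Bcl2 in KO pro-B cells. Levels are given as CPM, counts scaled to library size with TMM factors (trimmed mean of M values). Mta2 itself was at 199, 179 and 198 CPM in KO small pre-B libraries, against 438, 246 and 412 CPM in control small pre-B libraries. It was at 163 and 166 CPM in KO pro-B libraries, against 436 and 375 CPM in control pro-B libraries. Every KO library thus lay below every control library of its cell type, with control small pre-B library 2 the nearest to the KO libraries. Control small pre-B library 3 stood apart, with 15280 CPM of the nuclear RNA Malat1 against 1066 to 2956 CPM in the other 9 libraries. KO small pre-B libraries 1 and 2 held Xist RNA, at 2518 and 2942 CPM, and the other 8 libraries held at most 31.4 CPM. Summed RNA of Y-linked genes was 8.13 and 0.0790 CPM in these KO libraries, against 224 to 674 CPM in the other 8. By these RNAs sex was not balanced between KO and control in small pre-B cells, and its part in the results was not tested.

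The sorted populations were not pure by their RNA. Summed over 8 B lineage markers, levels were 8395 to 11385 CPM in KO small pre-B, 8293 to 12762 CPM in control small pre-B, 1954 to 2350 CPM in KO pro-B and 2336 to 2502 CPM in control pro-B libraries. Summed over 9 myeloid markers, they were 196 to 376, 103 to 263, 10151 to 15062 and 6299 to 6487 CPM in the same 4 groups. Summed over 6 plasmacytoid dendritic cell markers, they were 409 to 444, 300 to 355, 3525 to 3871 and 3343 to 3613 CPM. Siglech, a surface receptor of plasmacytoid dendritic cells, reached 1571 to 1893 CPM in pro-B libraries and was at 0.839 to 13.7 CPM in small pre-B libraries. The pro-B gate therefore held B lineage RNA together with much RNA of other blood cells, and fewer cells of a type and less RNA per cell cannot be told apart in such bulk libraries.

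With Mta2 deleted, 1 of the 10 members changed in small pre-B cells. This was the death gene Bbc3, which was 2.16-fold higher in KO. The count of 1 was 0 in 12 of 19 alternative analyses, among them those without each of 9 single libraries, and 3 without control small pre-B library 2. Over all genes tested, 3.02% were called in either direction, 1.89% as higher and 1.14% as lower, by edgeR's quasi-likelihood test at a Benjamini-Hochberg adjusted p below 0.05. At an unadjusted p below 0.05 there were 4 members (Bbc3, Bcl2l11, Bid and Bax), all with higher means in KO, beside 24.7% of all genes. The libraries did not overlap for 3 members (Bbc3, Bcl2l11 and Bid), all above in KO. Of all genes 25% did not overlap and 13.3% lay above. The median log2 fold change was 0.43 over the 10 members and 0.01 over all genes tested. In pro-B cells 0 of 10 members were called and 0.0353% of all genes were called. Mta2, the deleted gene, was not called there either (adjusted p = 0.212 by edgeR), so a missed call says little. At an unadjusted p below 0.05 there was 1 member (Bbc3) in edgeR, beside 6.45% of all genes. DESeq2 called 0 members and 182 of all genes. The pro-B median log2 fold change was 0.19 over the members and -0.01 over all genes. Pro-B groups did not overlap for 6 members, with 5 above and 1 below in KO. Of all genes 55.5% did not overlap there, 27.4% above and 28.1% below.

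The markers of other cells also moved with Mta2 status. In small pre-B cells 6 of 10 T cell markers were higher in KO by the same test, and their sum was 122 to 182 CPM in KO libraries against 20.1 to 69.4 CPM in control libraries. The 6 plasmacytoid dendritic cell markers, of which 0 passed, went both ways, with a median log2 fold change of -0.66. Bst2 (0.98) and Tcf4 (0.43) were higher in KO, while Siglech (-0.74), Klk1 (-2.15), Cd209d (-3.05) and Ccr9 (-0.57) were lower. Their sums did not overlap (409 to 444 CPM in KO and 300 to 355 CPM in control libraries). Of 9 myeloid markers 0 passed in small pre-B cells, with sums of 196 to 376 CPM in KO and 103 to 263 CPM in control libraries. Kit, a receptor of early progenitors and pro-B cells, was higher (log2 fold change 2.54, adjusted p = 0.0317), and Il2ra, a receptor chain of pre-B cells, was lower (log2 fold change -1.36, adjusted p = 0.0259). In pro-B cells 0 of 9 myeloid markers passed, and their summed ranges did not overlap (10151 to 15062 CPM in KO and 6299 to 6487 CPM in control libraries). Pro-B sums also did not overlap for 10 T cell markers (569 to 640 CPM in KO and 461 to 532 CPM in control libraries). The same held for 6 mature B and plasma cell markers (118 to 127 CPM in KO and 172 to 230 CPM in control). It also held for the sum of Kit, Dntt, Erg and Il2ra (800 to 996 CPM in KO and 616 to 703 CPM in control). Of these 4, Il2ra went the other way in pro-B KO (log2 fold change -1.08). Il2ra was also higher in small pre-B than in pro-B cells of control mice (4.42). Pro-B sums of KO and control libraries overlapped for B lineage, natural killer, plasmacytoid dendritic and erythroid markers and for the sorting marker Spn. Of the 8 B lineage markers 1 had a positive log2 fold change in pro-B KO (median -0.35). In these lists 0 markers passed for pro-B KO, and 55.5% of all genes did not overlap in that comparison. The part of these markers in the results for the BCL2 family was not tested.

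**Figure D1:**
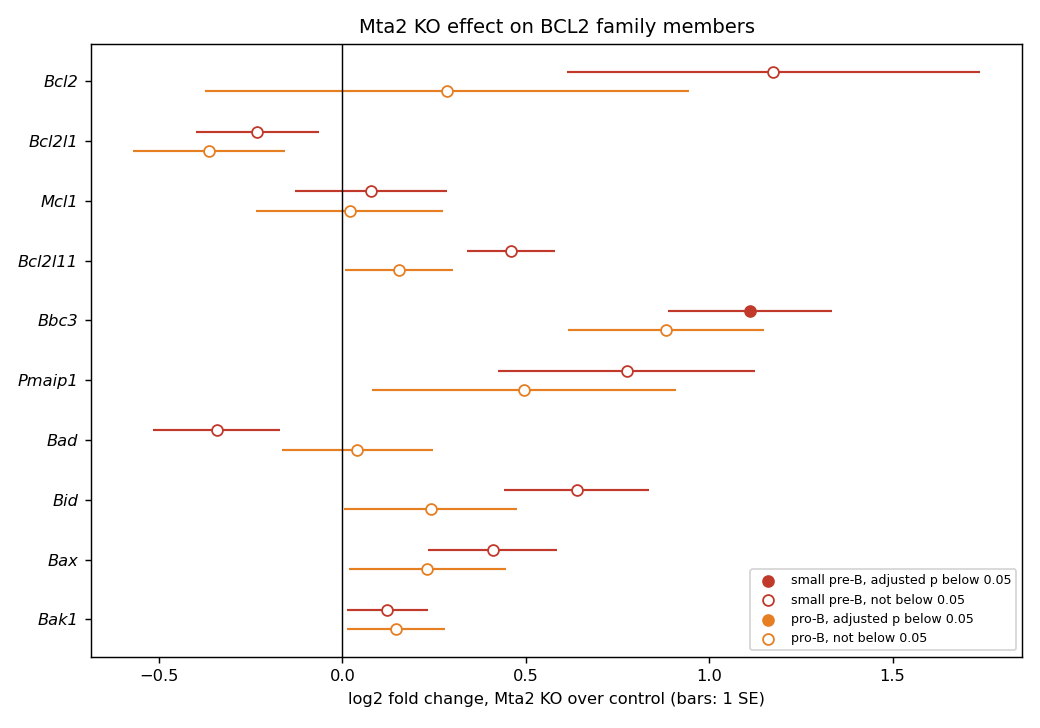
Log2 fold change of each member, Mta2 KO over control, in small pre-B cells (red, upper point of each pair) and pro-B cells (orange, lower point), with bars of 1 SE; a filled point has an adjusted p below 0.05. Bbc3 in small pre-B cells (1.11) is the single filled point, and the pro-B point of Bbc3 lies at 0.88, with bars that overlap.

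Between the stages the family differed far more. In KO mice 7 of 10 members differed between small pre-B and pro-B cells, with 3 higher (Bcl2l1, Mcl1 and Bcl2l11) and 4 lower (Bcl2, Bak1, Bad and Bid) in small pre-B cells. Of all genes tested 51.3% were called in this comparison, 24% as higher and 27.3% as lower, so most genes differed between the sorted populations, members or not. In control mice the calls were again 3 higher (Bcl2l1, Mcl1 and Bcl2l11) and 4 lower (Bcl2, Bak1, Bad and Bid), beside 55.4% of all genes (26% higher and 29.4% lower). The stage comparisons in KO and in control mice share no libraries. Bbc3, Pmaip1 and Bax did not pass in either. The median log2 fold change was -0.32 over the members in KO mice (-0.02 over all genes) and -0.50 in control mice (-0.02 over all genes). Groups did not overlap for the 7 called members in each genotype, 3 above and 4 below. Of all genes 75.9% did not overlap in KO mice (36.5% above and 39.4% below), and 73% in control mice (34.1% above and 38.9% below). Small pre-B and pro-B libraries carry different numbers in their titles and differ in the processing directory named in the file headers, so stage and handling cannot be told apart. The stages also differed in the markers above: in control mice all 9 myeloid, 6 plasmacytoid dendritic, 10 T cell and 6 natural killer markers were lower in small pre-B cells, and their part in the stage results was not tested.

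**Figure D2:**
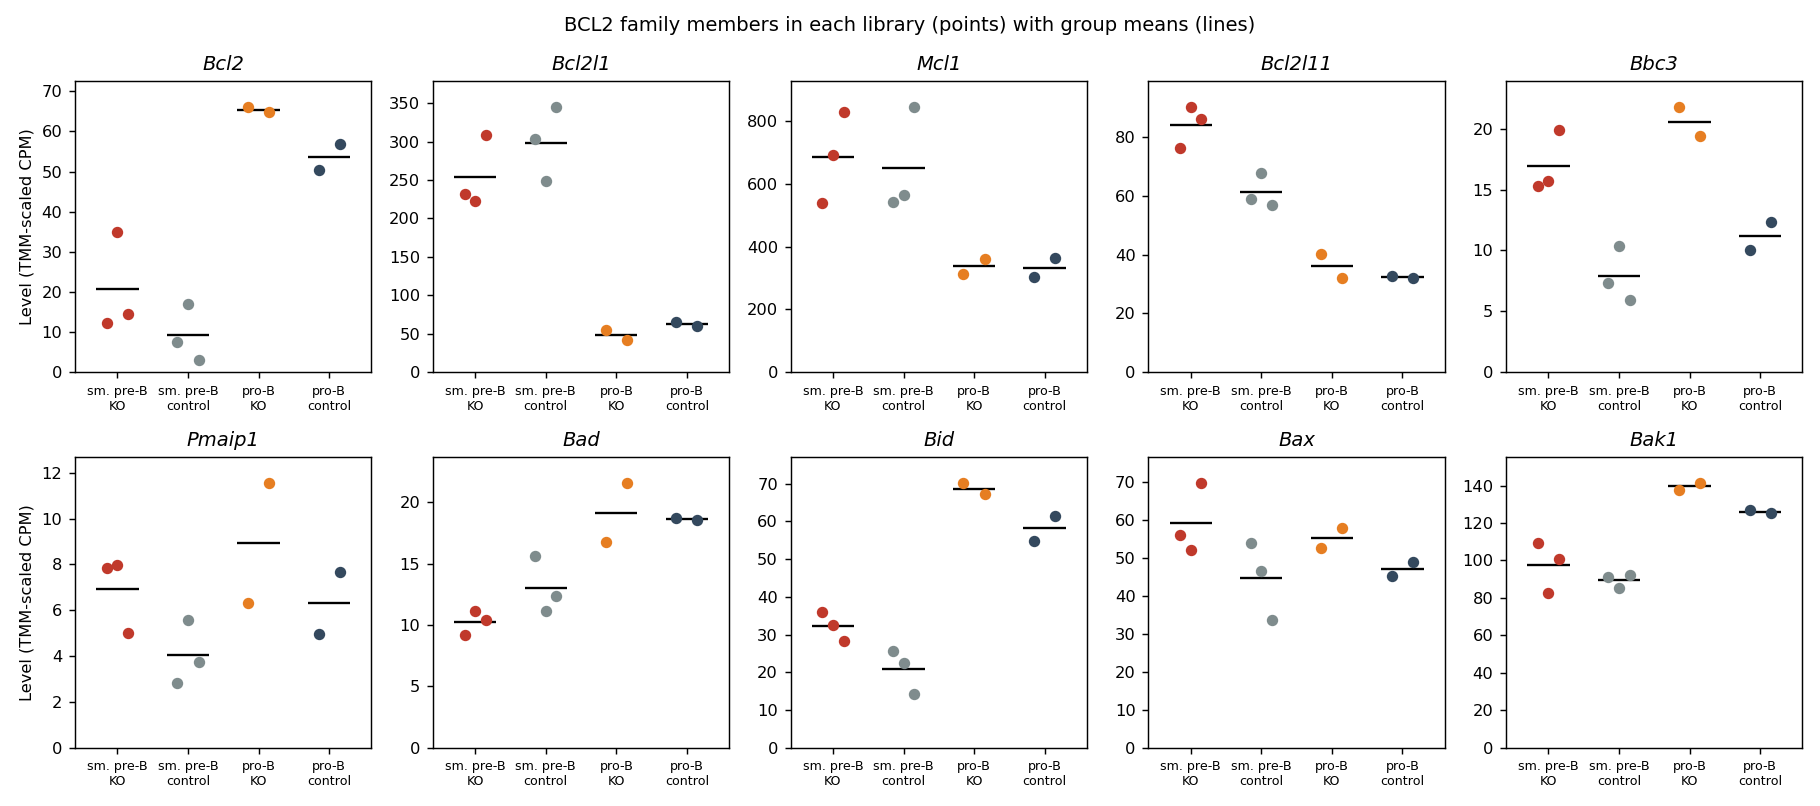
Level of each member in every library (points, TMM-scaled CPM, axes from 0) with group means (lines), for KO small pre-B, control small pre-B, KO pro-B and control pro-B from left to right. Bcl2 is high in the 4 pro-B libraries (50.3 to 66.0 CPM) and Bcl2l1 in the 6 small pre-B libraries (222 to 344 CPM). The KO points of Bbc3 lie above the control points at both stages, and in the reported fit of all libraries the difference passed the threshold in small pre-B cells only.

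Among the survival genes, Bcl2 was lower and Bcl2l1 higher in small pre-B than in pro-B cells. Bcl2 (chromosome 1, 106538179 to 106714290, mm10, minus strand), the founding member of the family, was at 12.3, 35.0 and 14.6 CPM in KO small pre-B libraries and at 66.0 and 64.8 CPM in KO pro-B libraries. Levels in control mice were 7.58, 17.0 and 3.10 CPM in small pre-B libraries and 50.3 and 56.9 CPM in pro-B libraries. All 6 small pre-B libraries lay below all 4 pro-B libraries. The stage difference in KO mice was a log2 fold change of -1.66 (SE 0.60, adjusted p = 0.0435), and in control mice it was -2.55 (SE 0.61, adjusted p = 0.00688). The call in KO mice was lost in 9 of 18 alternative analyses, with adjusted p between 0.00764 and 0.131. Within small pre-B cells the KO and control libraries of Bcl2 overlapped, KO library 2 being the highest and control 3 the lowest. The log2 fold change of KO over control was 1.17 (SE 0.56, adjusted p = 0.232). It was 0.55 without KO library 2, 0.74 without control 3 and 1.99 without control 2, where the adjusted p was 0.0471. In pro-B cells both KO libraries lay above both control libraries, with a log2 fold change of 0.29 (SE 0.66, adjusted p = 1).

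Bcl2l1 (chromosome 2, 152780668 to 152831682, minus strand), which encodes the survival protein BCL-XL, was the member with the smallest p between stages in both genotypes. It was at 232, 222 and 308 CPM in KO small pre-B libraries and at 54.6 and 42.3 CPM in KO pro-B libraries. Levels in control mice were 303, 249 and 344 CPM in small pre-B libraries and 64.5 and 60.2 CPM in pro-B libraries. Each small pre-B library was above each pro-B library. The fitted fold was 5.25 in KO mice (log2 fold change 2.39, SE 0.21, adjusted p = 2.63e-05) and 4.79 in control mice (2.26, SE 0.21, adjusted p = 3.51e-05). Both calls held in all 18 alternatives. The KO effect was -0.23 (SE 0.17, adjusted p = 0.417) on the log2 scale in small pre-B cells, where libraries overlapped, and -0.36 (SE 0.21, adjusted p = 0.955) in pro-B cells, where both KO libraries were lower.

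Mcl1 (chromosome 3, 95658721 to 95663178, plus strand), a survival gene whose protein is short-lived, was the highest member in every group when set per kb of exon. It was at 538, 691 and 828 CPM in KO small pre-B libraries and at 313 and 361 CPM in KO pro-B libraries. Levels in control mice were 541, 563 and 844 CPM in small pre-B libraries and 302 and 363 CPM in pro-B libraries. Small pre-B libraries lay above pro-B libraries in both genotypes, with log2 fold changes of 1.03 in KO mice (SE 0.24, adjusted p = 0.00635) and 0.97 in control mice (SE 0.24, adjusted p = 0.00776). The call was lost without KO pro-B library 1 in KO mice (adjusted p = 0.0585) and without control pro-B library 1 in control mice (adjusted p = 0.0727). KO and control libraries overlapped at both stages, with log2 fold changes of 0.08 in small pre-B cells (SE 0.21, adjusted p = 0.841) and 0.02 in pro-B cells (SE 0.25, adjusted p = 1).

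To set these genes beside each other, levels were divided by exon length (CPM per kb). On that scale Mcl1 made up 64.0% ± 3.05 of the summed level of the survival genes Mcl1, Bcl2l1 and Bcl2 in KO small pre-B libraries (SD, n = 3), and 59.1% ± 3.99 in control small pre-B libraries (SD, n = 3). In pro-B cells its share was 76.9% ± 4.13 in KO libraries and 74.0% ± 2.89 in control libraries (SD, n = 2 each). Mcl1 was thus the largest part of the sum in all 4 groups. Bcl2l1 made up 35.1% ± 3.48 in KO small pre-B, 40.5% ± 3.97 in control small pre-B, 16.4% ± 3.72 in KO pro-B and 20.6% ± 2.87 in control pro-B libraries. Bcl2 made up 0.889% ± 0.556 in KO small pre-B, 0.422% ± 0.363 in control small pre-B, 6.74% ± 0.410 in KO pro-B and 5.40% ± 0.0221 in control pro-B libraries. The ratio of Bcl2l1 to Bcl2 per kb was 61.4, 20.7 and 68.9 in KO small pre-B libraries, against 130, 47.8 and 363 in control small pre-B libraries. In pro-B cells it was 2.70 and 2.13 in KO libraries, against 4.18 and 3.45 in control libraries. The ratio was higher in every small pre-B library than in every pro-B library, and control small pre-B library 3 gave its highest value.

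**Figure D3:**
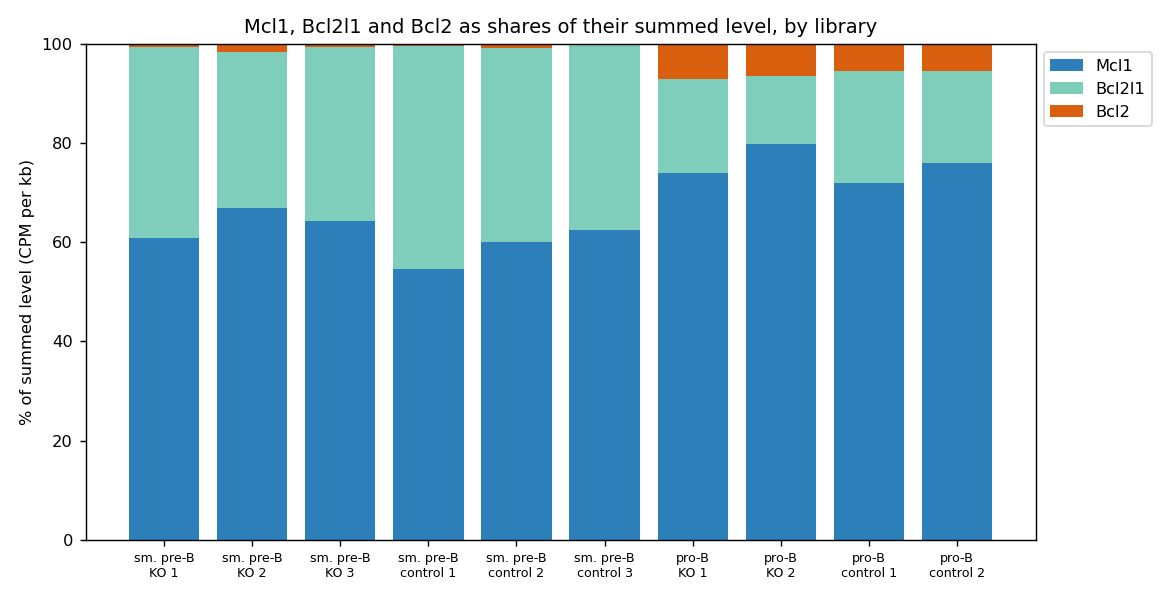
Mcl1, Bcl2l1 and Bcl2 as percent of their summed level (CPM per kb), 1 bar per library, for KO small pre-B, control small pre-B, KO pro-B and control pro-B. Bcl2 (top segment) is at most 1.53% in small pre-B libraries and at least 5.38% in pro-B libraries, and Bcl2l1 (middle segment) is larger in small pre-B libraries.

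Of the BH3-only genes, Bbc3 (chromosome 7, 16309583 to 16318334, plus strand) was the member called with Mta2 deleted. It encodes PUMA, which binds all the main survival proteins and is a known p53 target. Because it carried the KO result, the promoter of its first start site in the files and that of an inner start site are printed, beside those of Bcl2l11 and Bcl2. Sequences are RefSeq's for GRCm38.p6, from 250 bases before to 50 bases after a start site, given 5′ to 3′ on the strand of the gene. RefSeq windows were read for 9 of the 10 members (15 windows in all), and those of Pmaip1 were not read. Capitals mark the GC box GGGCGG and the forkhead motif TGTTTAC on either strand, where overlapping matches run together.
Bbc3 first start (chr7:16309333-16309632, plus strand): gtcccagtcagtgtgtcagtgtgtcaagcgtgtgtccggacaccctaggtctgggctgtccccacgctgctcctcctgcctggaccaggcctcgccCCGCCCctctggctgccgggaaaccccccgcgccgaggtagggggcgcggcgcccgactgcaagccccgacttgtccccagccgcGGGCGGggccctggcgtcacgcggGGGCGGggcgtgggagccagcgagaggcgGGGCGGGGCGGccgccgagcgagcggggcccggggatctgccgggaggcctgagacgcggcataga
Bbc3 inner start (chr7:16310011-16310310, plus strand): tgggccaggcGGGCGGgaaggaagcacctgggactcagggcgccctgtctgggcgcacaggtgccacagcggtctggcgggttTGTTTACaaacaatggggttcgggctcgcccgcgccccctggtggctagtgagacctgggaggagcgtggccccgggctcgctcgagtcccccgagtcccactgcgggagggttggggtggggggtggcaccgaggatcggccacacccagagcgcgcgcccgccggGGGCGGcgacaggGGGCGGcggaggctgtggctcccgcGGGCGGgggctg
Bcl2l11 first start (chr2:128125788-128126087, plus strand): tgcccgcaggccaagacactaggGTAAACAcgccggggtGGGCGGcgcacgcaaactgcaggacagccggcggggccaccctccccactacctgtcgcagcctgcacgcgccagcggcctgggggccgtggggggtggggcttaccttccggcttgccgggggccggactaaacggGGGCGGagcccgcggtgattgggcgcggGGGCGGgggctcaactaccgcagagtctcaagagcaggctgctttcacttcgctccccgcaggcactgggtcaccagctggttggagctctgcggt
Bcl2 (chr1:106714241-106714540, minus strand): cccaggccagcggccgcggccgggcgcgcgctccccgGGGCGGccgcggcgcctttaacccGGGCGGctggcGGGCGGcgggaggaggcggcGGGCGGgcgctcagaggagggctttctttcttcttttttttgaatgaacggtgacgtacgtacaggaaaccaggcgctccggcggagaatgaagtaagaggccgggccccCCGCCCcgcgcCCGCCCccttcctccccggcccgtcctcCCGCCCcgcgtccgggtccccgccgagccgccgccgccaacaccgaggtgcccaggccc

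The window at the first start of Bbc3 held 5 GC boxes and that of Bcl2 held 7, a motif present in 35.7% of 32851 RefSeq promoter windows of the same length. Windows of Bcl2l11, Mcl1, Bid, Bax and Bad held GC boxes too. The forkhead motif is in 3.65% of windows. It was found once in the inner window of Bbc3, with its first base 167 bases before the start site, and once in the first window of Bcl2l11, 227 bases before its start site. The E-box CACGTG (7.15% of windows) was found 2 times in the Bax window and once in a further Bbc3 window. The p53 half-site (8.36% of windows) was found once, in the Bax window. The STAT motif TTCNNNGAA (8.30%) and the octamer ATGCAAAT (1.74%) were in none of the 15 windows. The 3 windows of Bcl2l1, the Bak1 window and the second Bad window held none of the 6 motifs. These matches describe letters in short windows and say nothing of binding.

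Bbc3 was at 15.3, 15.7 and 19.9 CPM in KO small pre-B libraries, against 7.30, 10.4 and 5.88 CPM in control small pre-B libraries. Its mean was 16.9 ± 2.53 CPM in KO and 7.86 ± 2.31 CPM in control libraries (SD, n = 3 each). Each KO library was above each control library, and control 3 was the lowest. The log2 fold change was 1.11 (SE 0.22, adjusted p = 0.0407 by edgeR). In pro-B cells Bbc3 was at 21.7 and 19.4 CPM in KO libraries, against 9.99 and 12.3 CPM in control libraries, again without overlap. The log2 fold change there was 0.88 (SE 0.27, unadjusted p = 0.00903, adjusted p = 0.456), and in a fit of the pro-B libraries alone the adjusted p was 0.0152. In a fit of the small pre-B libraries alone 0 members and 0 genes were called, so the stage at which Bbc3 passed depended on the fit. The difference between the KO effects on Bbc3, small pre-B minus pro-B, was 0.23 on the log2 scale (SE 0.35, adjusted p = 0.886). A p that misses the threshold does not show that these effects are equal. Neither stage comparison passed for Bbc3, at -0.28 (adjusted p = 0.358) in KO mice and -0.51 (adjusted p = 0.102) in control mice.

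The call of Bbc3 in small pre-B cells lay close to the threshold. Over 19 alternative analyses its log2 fold change ran from 0.93 to 1.37 and was positive in each, while the adjusted p ran from 0.000226 to 0.184 and stayed below 0.05 in 7. The call was lost in 12. Without control 3 the log2 fold change was 0.93 (adjusted p = 0.0551), and without the KO libraries with Xist RNA it was 1.34 (adjusted p = 0.184). Leaving out control small pre-B library 2 kept the call (adjusted p = 0.00623), and leaving out each of the other 9 libraries ended it. Mta2 itself was called in the same comparison at an adjusted p of 0.0420 by edgeR. In pro-B cells the same test did not call Mta2 (log2 fold change -1.31, adjusted p = 0.212), although it is the deleted gene.

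**Figure D4:**
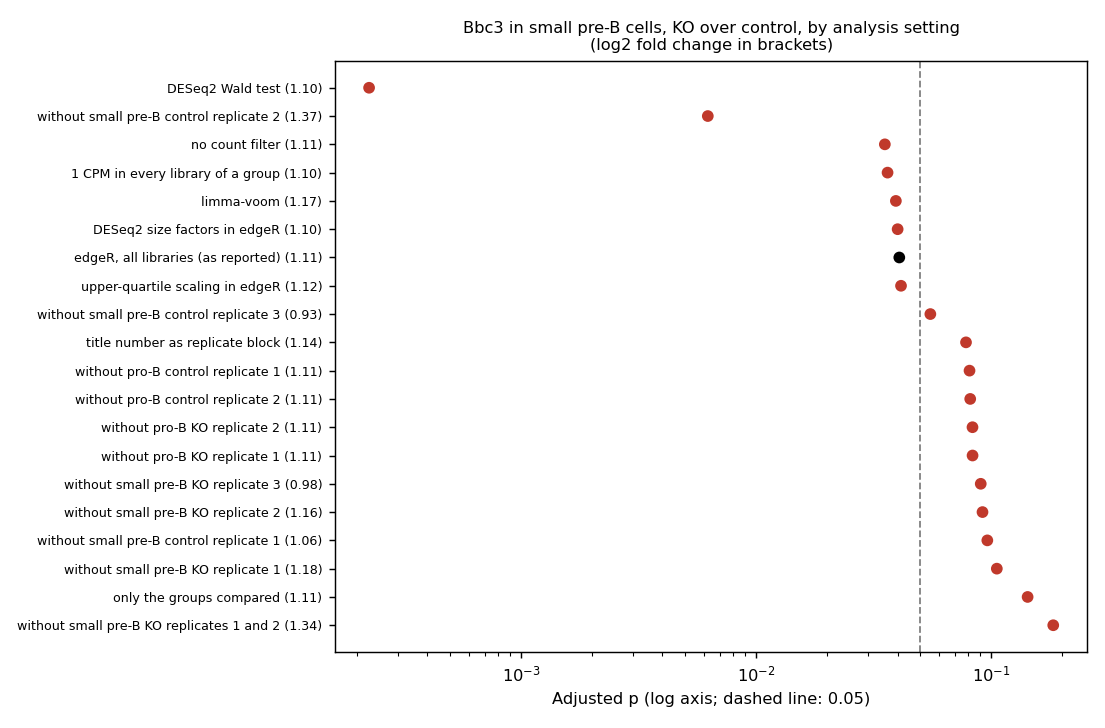
Adjusted p of Bbc3 in small pre-B cells, KO over control, under the reported analysis (black) and 19 alternatives (red), on a log axis with the threshold of 0.05 as a dashed line and the log2 fold change in brackets. The points run from 0.000226 to 0.184, with 7 alternatives below the line and 12 above it.

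Bcl2l11 (chromosome 2, 128126038 to 128162547, plus strand) encodes BIM, which binds all the main survival proteins and is known for its part in removing self-reactive and unselected lymphocytes. It was at 76.1, 90.1 and 86.0 CPM in KO small pre-B libraries, against 58.9, 67.8 and 56.8 CPM in control small pre-B libraries. All 3 KO libraries were above the controls, and the log2 fold change was 0.46 (SE 0.12, adjusted p = 0.0707), short of the threshold in edgeR. It passed in the DESeq2 Wald test (adjusted p = 0.0148) and without control small pre-B library 2 (adjusted p = 0.0370). Pro-B levels were 40.1 and 32.0 CPM in KO libraries, against 32.8 and 32.1 CPM in control libraries, which overlapped (log2 fold change 0.15, SE 0.15, adjusted p = 1). Bcl2l11 was higher in small pre-B than in pro-B cells, by 2.33-fold in KO mice (log2 fold change 1.22, SE 0.14, adjusted p = 0.000115) and by 1.89-fold in control mice (0.91, SE 0.14, adjusted p = 0.000543). Both calls held in all 18 alternatives. Per kb, the ratio of Bcl2l11 to Bbc3 was 1.95, 2.25 and 1.70 in KO small pre-B libraries, against 3.16, 2.56 and 3.79 in control small pre-B libraries. It was 0.724 and 0.647 in KO pro-B libraries, against 1.29 and 1.02 in control pro-B libraries. At both stages the KO libraries had the lower ratios, without overlap. This restates the larger log2 fold changes of Bbc3 (1.11 and 0.88) than of Bcl2l11 (0.46 and 0.15) and is no separate result.

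Pmaip1 encodes NOXA, which binds MCL1 and promotes its breakdown. It was at 7.85, 7.98 and 4.99 CPM in KO small pre-B libraries, against 2.84, 5.56 and 3.72 CPM in control small pre-B libraries. Pro-B levels were 6.30 and 11.5 CPM in KO libraries, against 4.97 and 7.68 CPM in control libraries. Groups overlapped at both stages, with log2 fold changes of 0.78 (SE 0.35, adjusted p = 0.209) in small pre-B cells and 0.49 (SE 0.42, adjusted p = 1) in pro-B cells. Neither stage comparison passed (log2 fold change -0.36, adjusted p = 0.449 in KO mice and -0.64, adjusted p = 0.176 in control mice).

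Bid (chromosome 6, 120893119 to 120916820, minus strand) links death receptors to the mitochondrion once a caspase has cut its protein. It was at 36.1, 32.5 and 28.3 CPM in KO small pre-B libraries, against 25.7, 22.4 and 14.3 CPM in control small pre-B libraries. KO libraries were above controls without overlap, and control 3 was again the lowest (log2 fold change 0.64, SE 0.20, adjusted p = 0.101; 0.0317 in DESeq2). Pro-B levels were 70.1 and 67.2 CPM in KO libraries, against 54.8 and 61.5 CPM in control libraries (log2 fold change 0.24, SE 0.24, adjusted p = 1). Bid was lower in small pre-B than in pro-B cells, with a log2 fold change of -1.09 in KO mice (SE 0.21, adjusted p = 0.00257) and -1.49 in control mice (SE 0.22, adjusted p = 0.000435), and both calls held in all 18 alternatives.

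Bad (chromosome 19, 6941855 to 6951893, plus strand) encodes a BH3-only protein that is switched off by phosphorylation under growth factor signals. Of its 1452 exon positions 517 are shared with Gpr137, so its counts are less certain than those of the other 9 members, which share none. It was at 9.17, 11.1 and 10.4 CPM in KO small pre-B libraries, against 15.7, 11.1 and 12.3 CPM in control small pre-B libraries. Pro-B levels were 16.8 and 21.6 CPM in KO libraries, against 18.7 and 18.6 CPM in control libraries. The groups overlapped at both stages, with log2 fold changes of -0.34 (SE 0.17, adjusted p = 0.250) and 0.04 (SE 0.21, adjusted p = 1). Bad was lower in small pre-B than in pro-B cells in KO mice (log2 fold change -0.90, SE 0.19, adjusted p = 0.00350) and in control mice (-0.52, SE 0.19, adjusted p = 0.0410). The call in control mice was lost in 9 of 18 alternatives, with adjusted p between 0.0162 and 0.146.

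The effectors BAX and BAK form the pore itself and can stand in for each other in many cells. Bax (chromosome 7, 45461695 to 45466898, minus strand) was at 56.0, 52.0 and 69.6 CPM in KO small pre-B libraries, against 53.8, 46.4 and 33.6 CPM in control small pre-B libraries. Only control 1 reached into the range of the KO libraries, and control 3 was the lowest (log2 fold change 0.41, SE 0.18, adjusted p = 0.192; 0.24 without control 3). Bax was at 52.6 and 57.7 CPM in KO pro-B libraries, against 45.2 and 48.8 CPM in control pro-B libraries (log2 fold change 0.23, SE 0.21, adjusted p = 1). The stages did not pass for Bax, at 0.10 (adjusted p = 0.689) in KO mice and -0.08 (adjusted p = 0.757) in control mice.

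Bak1 (chromosome 17, 27019812 to 27028626, minus strand) was at 109, 82.6 and 101 CPM in KO small pre-B libraries, against 91.2, 85.4 and 92.2 CPM in control small pre-B libraries. It was at 138 and 141 CPM in KO pro-B libraries, against 127 and 126 CPM in control pro-B libraries. Small pre-B libraries were below pro-B libraries in both genotypes, with log2 fold changes of -0.52 (SE 0.12, adjusted p = 0.00659) in KO mice and -0.49 (SE 0.12, adjusted p = 0.00765) in control mice. These calls held in all 18 alternatives. The KO effect was 0.12 (SE 0.11, adjusted p = 0.518) in small pre-B cells, where groups overlapped, and 0.15 (SE 0.13, adjusted p = 1) in pro-B cells, where they did not.

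Ordered per kb, Mcl1 was the highest member in each group, at 197 ± 41.6 CPM per kb in KO small pre-B, 186 ± 48.4 in control small pre-B (SD, n = 3 each), 96.6 ± 9.76 in KO pro-B and 95.3 ± 12.4 in control pro-B libraries (SD, n = 2 each). Bcl2l1 was the next in small pre-B cells, at 107 ± 19.8 CPM per kb in KO and 126 ± 20.3 in control libraries, followed by Bax and Bak1. The ranges of Bax and Bak1 overlapped in control small pre-B libraries. In pro-B cells Bak1, Bax and Bid came after Mcl1, and Bcl2l1 followed Bid in both genotypes. Bcl2 and Pmaip1 were the lowest pair in small pre-B cells, with overlapping ranges in KO and in control libraries. In pro-B cells Pmaip1 was the lowest. Bbc3 stood at 8.58 ± 1.28 CPM per kb in KO small pre-B libraries, above Bad, and at 3.98 ± 1.17 CPM per kb in control small pre-B libraries, below Bad. Since Bad shares 517 of its 1452 exon positions with Gpr137, its level per kb and this order are uncertain.

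The KO effects at the 2 stages were also set against each other in 1 test, and 0 of 10 members passed. Of all genes 0% were called by edgeR, with 907 genes at an unadjusted p below 0.05 (0 of them members) and 58 genes called by DESeq2. The widest gap was in Bcl2, at 0.89 on the log2 scale (SE 0.87, adjusted p = 0.834), small pre-B minus pro-B. Bid (0.40, SE 0.31), Bad (-0.38, SE 0.27) and Bcl2l11 (0.31, SE 0.19) came next. None of these gaps could be told from 0 by the test, which does not show that the effects are equal.

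**Figure D5:**
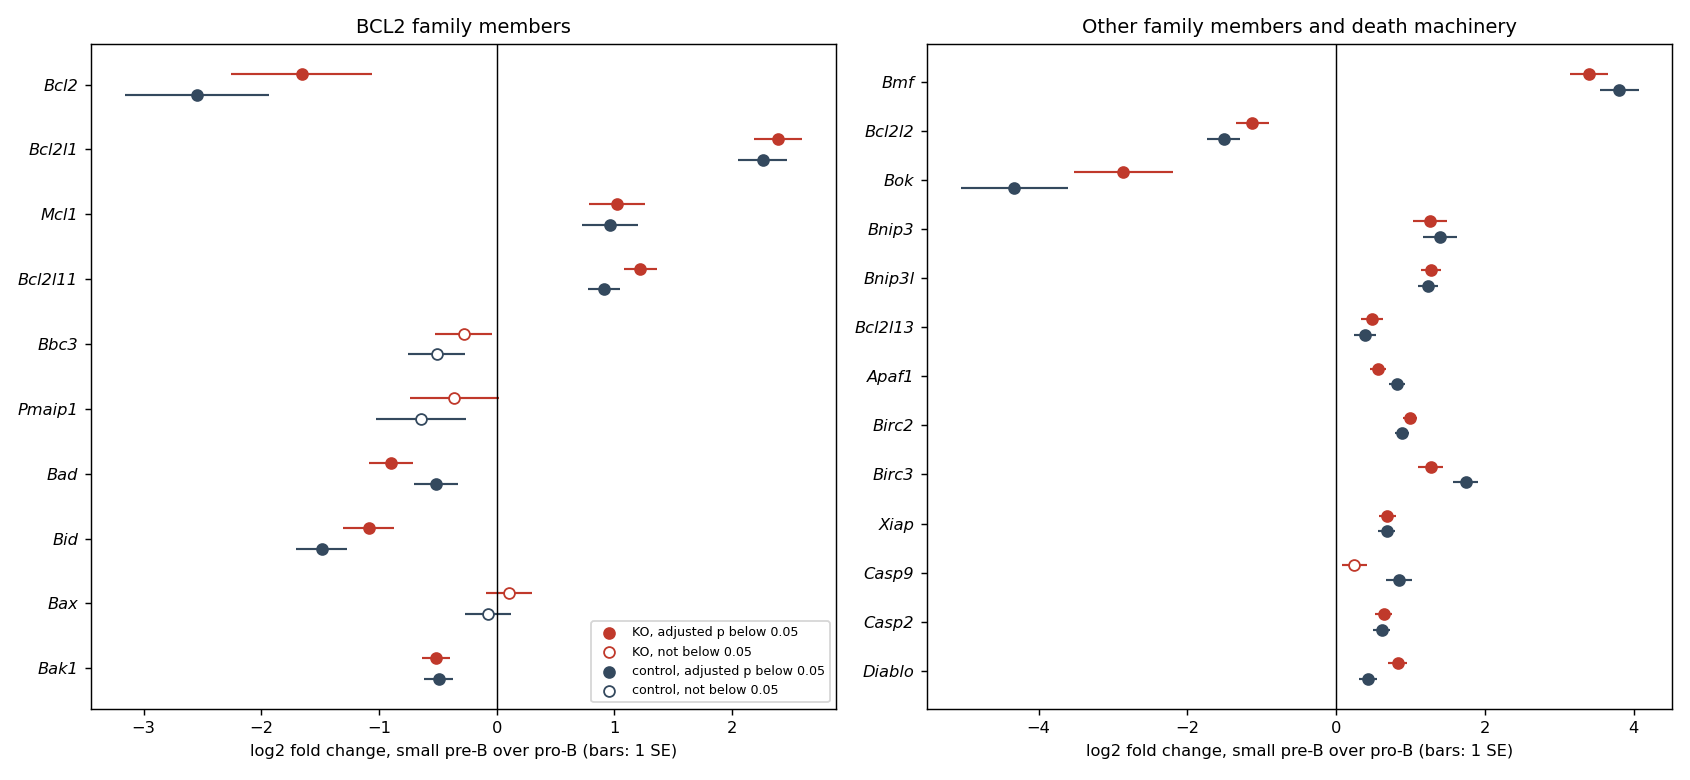
Log2 fold change of small pre-B over pro-B cells in KO mice (red, upper point) and control mice (dark blue, lower point) with bars of 1 SE, for the 10 members (left) and for other family members and death machinery genes (right); filled points have an adjusted p below 0.05. Bcl2l1, Mcl1, Bcl2l11 and Bmf lie to the right and Bcl2, Bad, Bid, Bak1 and Bcl2l2 to the left in both genotypes.

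Among 15 other genes of the family, 11 were tested and 0 passed for Mta2 KO at either stage. Bcl2l2, a survival gene, had the smallest p in small pre-B cells (log2 fold change 0.50, adjusted p = 0.174), and Bmf, a BH3-only gene, in pro-B cells (0.59, adjusted p = 0.685). Between the stages 5 of the 11 were higher and 3 lower in small pre-B cells of KO mice, where 51.3% of all genes were called. In control mice 4 were higher and 3 lower, where 55.4% of all genes were called. The smallest p values in both genotypes were those of Bmf, Bnip3l and Bnip3, which were higher, and of Bcl2l2, which was lower. Bmf had the largest rise of these, at 384, 434 and 522 CPM in KO small pre-B libraries and 43.2 and 41.4 CPM in KO pro-B libraries. Levels in control mice were 300, 416 and 464 CPM in small pre-B libraries and 23.1 and 33.0 CPM in pro-B libraries. The log2 fold change was 3.40 (SE 0.25, adjusted p = 1.20e-05) in KO mice and 3.81 (SE 0.26, adjusted p = 9.06e-06) in control mice, wider than that of any of the 10 members.

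Of 20 genes of the mitochondrial death machinery and caspases, 0 passed for Mta2 KO at either stage. In small pre-B cells Diablo, which relieves caspases of their inhibitors, had the smallest p (log2 fold change 0.41, adjusted p = 0.0737), followed by the caspase gene Casp6 (-0.82, adjusted p = 0.0853). Between the stages 8 were higher and 2 lower in small pre-B cells of KO mice, and 9 were higher and 1 was lower in those of control mice. These 10 of 20 in each genotype stand beside 51.3% of all genes called in KO mice and 55.4% in control mice. By direction, 24% of all genes were higher and 27.3% lower in KO mice, and 26% were higher and 29.4% lower in control mice. The smallest p values in KO mice were those of the inhibitor of apoptosis genes Birc2 (log2 fold change 0.99), Birc3 (1.27) and Xiap (0.69) and of Diablo (0.83), all higher in small pre-B cells. In control mice they were those of Birc3 (1.74), Birc2 (0.88), Xiap (0.68) and Apaf1 (0.82), the scaffold on which caspase 9 is activated, also all higher. The median log2 fold change over this list was 0.20 in KO mice and 0.22 in control mice, beside -0.02 over all genes in each.

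Of 20 known regulators of the family, 0 passed for Mta2 KO at either stage. In small pre-B cells Myc, which can prime cells for death, had the smallest p (log2 fold change 1.44, adjusted p = 0.103). It was at 17.3, 28.8 and 12.0 CPM in KO libraries, against 6.41, 12.0 and 3.15 CPM in control libraries. Between the stages 5 regulators were higher and 6 lower in small pre-B cells of KO mice, where 51.3% of all genes were called, and 5 were higher and 4 lower in those of control mice, where 55.4% were called. The smallest p values in KO mice were those of Foxo1, a forkhead factor of early B cells (log2 fold change 2.13), Il7r, the interleukin-7 receptor chain (1.66), and Mdm2, which restrains p53 (0.70), all higher, and of Stat5a, which carries interleukin-7 signals to the nucleus (-1.20, adjusted p = 0.000127), which was lower. In control mice they were those of Foxo1 (1.95), Il7r (1.57) and the kinase gene Pim1 (1.49), which were higher, and of Myc, which was lower (-3.54, adjusted p = 0.000372). The median log2 fold change over this list was 0.23 in KO mice and 0.01 in control mice, beside -0.02 over all genes in each.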

How the data were processed

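Transcripts were measured by stranded mRNA sequencing. The deposited values are raw counts of reads for each gene symbol in each library, without normalization by the authors. Per the file headers the authors counted exon reads with featureCounts 1.4.3-p1 on an mm10 annotation with no strand option, so genes that overlap on opposite strands cannot be told apart. CASAVA 1.82, mm9 and STAR are named in the submitters' processing notes, while coordinates in the files are mm10, as given here. The header of the file for control small pre-B library 3 carries another number (919) than the sample's title (931).

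The members and the other gene lists were chosen with earlier results of these data known. Groups came from the sample labels. The counts were fitted with edgeR 4.0.16 (R 4.3.3): filterByExpr by group (minimum count 10, minimum total 15) left 14161 of 23420 genes, libraries were scaled by TMM, and a robust quasi-likelihood model with a mean per group was fitted to all 10 libraries. P-values are two-sided, adjusted by the Benjamini-Hochberg method across the genes tested, and called below 0.05. The SE is the size of the log2 fold change divided by the square root of its F statistic, and fold changes use a prior count of 0.125. Counting error is the square root of the mean of squared CPM over count. A count of 3 corresponds to 0.0540 to 0.173 CPM. All 10 members are named in every comparison, Mta2 checks the labels, and from 3 other lists the members past the threshold with the smallest p are named, up to 4 per list and comparison, or up to 2 where none passed. The fitting code was run on simulated counts with 200 changed genes. The simulated counts had a spread common to all genes and no other differences between groups, unlike the real counts. The run therefore does not test the calls reported here.

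Alternatives were other scalings in edgeR (DESeq2 size factors, upper quartile), other tests (DESeq2 1.42.0 with its Wald test, limma-voom from limma 3.58.1), other filters on low counts (none, or at least 1 CPM throughout a group), fitting only the groups compared, the title number as a replicate block, and leaving out each library. Chosen after seeing the data was leaving out the KO small pre-B libraries with Xist RNA. Where this left a group with 1 library, that library was taken to have the spread of the other groups. Promoter windows are RefSeq's for GRCm38.p6, and proteins were not analysed here.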

Additional observations from a re-analysis of the deposited data

How the results depend on the processing

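For Mta2 KO in small pre-B cells 1 member was called as reported, 3 by the DESeq2 Wald test (Bbc3, Bcl2l11 and Bid), 0 in a fit of the compared groups alone, 0 without the Xist libraries and 0 to 3 when single libraries were left out (3 without control small pre-B library 2, 0 without each of the other 9). In pro-B cells 0 were called as reported and 1 (Bbc3) in a fit of the compared groups alone. Counts of called members between stages and for the difference of the KO effects stayed within 1.5 times the reported ones. Over all genes, small pre-B KO gave 428 calls, 1869 by DESeq2, 0 in the compared groups alone and without the Xist libraries, and 1 to 1667 without single libraries. Its split was 267 higher and 161 lower, 1068 and 801 by DESeq2, and 313 and 124 by limma-voom. Pro-B KO gave 5 calls, 182 by DESeq2, 148 by limma-voom, 8 with no count filter or with the 1 CPM filter, 856 in the compared groups alone, 0 without the Xist libraries and 0 to 25 without single libraries. The difference of the KO effects gave 0 calls, 58 by DESeq2 and 0 to 40 without single libraries. With the title number as a replicate block, 0 members and 153 genes were called in small pre-B cells (Bbc3 adjusted p = 0.0781) and 0 genes in pro-B cells. The labels do not say what these numbers mark. Same-numbered KO and control libraries correlated in their deviations at 0.0917, 0.175 and 0.0434 in small pre-B cells and 0.0626 in pro-B cells, and KO small pre-B library 3 correlated best with control library 1 (0.0682), not with its own number.

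Members that were not called changed sign in some alternatives. On the log2 scale, leaving out single libraries gave for KO over control in small pre-B cells -0.0795 to 0.3104 for Mcl1. In pro-B cells it gave -0.017 to 0.3067 for Bcl2l11, -0.1076 to 0.1585 for Mcl1, -0.0074 to 0.8687 for Pmaip1 and -0.152 to 0.2115 for Bad. For the difference it gave -0.1117 to 0.0848 for Bak1, -0.0993 to 0.2907 for Mcl1, -0.0908 to 0.7854 for Pmaip1 and -0.0383 to 0.3299 for Bcl2l1. Between stages it gave -0.7399 to 0.1365 for Pmaip1 and -0.0293 to 0.1894 for Bax in KO mice, and -0.2311 to 0.096 for Bax in control mice. Without the Xist libraries Bcl2l1 in small pre-B KO was 0.0525, and the differences of Bak1 and Pmaip1 were 0.0292 and -0.1907. With upper-quartile scaling the difference of Bak1 was 0.0064. The causes were not tested. The lowest count of a member was 51, and in 4 of 40 pairs of a member and a group the SD between libraries was not above counting error.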
